A study of Mus musculus with 10 samples.

Results

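Bcl10 lies on mouse chromosome 3, and the genes described here are its neighbours on both sides. They are the protein-coding genes of the deposited table that start between 135900000 and 155900000 on chromosome 3 of the GRCm38 assembly, about 10 Mb to each side of the start of Bcl10, with Bcl10 itself left out. A start here is the lower coordinate of a gene model on either strand, so for minus-strand genes it is the end of transcription. Distances run from the start of Bcl10 unless its end is named. The window was set by position alone, and no expression value was used to pick genes within it. The window was chosen with earlier results of these data known. It took 95 of the 37991 rows of the table, of which 20214 were protein-coding genes. There were 51 members before Bcl10 and 44 after it.

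The cells were primary keratinocytes, which build the epidermis, isolated from pup skin at postnatal day 4 to 5. All animals carried the targeted allele Bcl10tm1Mak, on both chromosomes in the knockout (Bcl10-/-) and on one in the heterozygous littermates (Bcl10+/-), so no wild-type culture serves as the baseline here. The 4 groups were knockout cells given 200 ng/mL of recombinant mouse IL-17A for 5 h (n = 2), knockout cells left unstimulated (n = 2), heterozygous cells given the same IL-17A treatment (n = 3) and unstimulated heterozygous cells (n = 3). Every culture grew on collagen-treated plastic at low calcium (0.05 mM calcium chloride, serum-free), and 100 ng of total RNA went into each poly(A)-selected library. Libraries that share a genotype and a number in the labels are called a culture, which gives 2 knockout and 3 heterozygous cultures, each with an IL-17A and an unstimulated library. The labels do not say whether these numbers are separate animals, and any p-value then measures only how far these samples spread, which may be technical. What the allele removes, the embryonic stem cell strain and the number of backcrosses are items not given by the labels.

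A mutation made in embryonic stem cells is carried on a stretch of chromosome from the strain of those cells. Breeding into another strain exchanges distant DNA first, and the DNA nearest the mutation stays linked to it longest. Animals homozygous and heterozygous for the mutation can therefore differ in sequence at neighbouring genes as well, and differences in expression that come from such linked variants are known as passenger effects. Reads that differ from the reference genome can also align less well, which lowers a measured level without a change in RNA. BCL10 itself is an adaptor protein that links CARD-family scaffolds to the protease MALT1 in NF-kB signalling. No sequence variants were examined here, so the values below describe levels by position only.

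Several facts of the libraries bear on every comparison between genotypes. Bcl10 (ENSMUSG00000028191; chromosome 3 plus strand, bases 145922804-145934356) stood at 16.4 FPKM with IL-17A and 0.969 FPKM without it in knockout culture 1, and at 16.6 and 17.0 FPKM in knockout culture 2. Heterozygous cultures 2 and 3 had 59.5 to 72.3 FPKM, but the pair of libraries labelled heterozygous culture 1 had 16.3 and 18.04 FPKM, near the level of 3 of the 4 libraries labelled knockout and against their own label. Comparisons are therefore given with and without that culture. The labels also number the libraries 1 to 14 for both knockout cultures and heterozygous culture 1, and 33 to 38 for heterozygous cultures 2 and 3, so for cultures 2 and 3 a difference by genotype and one by number set cannot be told apart. Depth estimated from the steps of low values was 15.9 to 49.9 M fragments per library, at which 3 fragments in a gene of 1 kb equal 0.0601 to 0.188 FPKM, a floor that covers counting error only. The share of the 10 most abundant genes in total FPKM was 12.6% in the unstimulated library of knockout culture 1 and 8.21% to 8.66% in every other library. The basal keratin gene Krt5 was at 4430 to 6426 FPKM in all 10 libraries. Of 7 basal keratinocyte markers 6 had a mean of at least 1 FPKM, and the other, Krt15, stayed at or below 0.180 FPKM. Of 6 leukocyte markers 5 were listed at 0 throughout. The summed level of 6 fibroblast markers was 28.7 and 28.5 FPKM in knockout culture 2, against 0.159 to 0.454 FPKM elsewhere.

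Promoter sequences are shown for the 3 genes under 1 Mb from Bcl10 on which the comparison below turns most. They run from 250 bases before to 50 bases after the transcription start in RefSeq's annotation of GRCm38.p6 and were read on the strand of the gene. Capitals mark the GC box GGGCGG or its reverse complement CCGCCC, the binding motif of Sp-family transcription factors. The Mcoln3 sequence (chr3:146121541-146121840, plus strand) follows a RefSeq start that lies inside the GENCODE gene model used for distances. The RefSeq start behind the Clca2 sequence also lies inside the GENCODE model of its gene.
Mcoln3: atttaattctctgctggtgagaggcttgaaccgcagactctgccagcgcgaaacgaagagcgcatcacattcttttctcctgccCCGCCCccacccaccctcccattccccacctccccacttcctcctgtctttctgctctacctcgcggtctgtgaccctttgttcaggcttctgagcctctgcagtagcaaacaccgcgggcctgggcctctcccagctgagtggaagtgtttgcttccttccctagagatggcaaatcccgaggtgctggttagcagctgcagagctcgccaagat
2410004B18Rik: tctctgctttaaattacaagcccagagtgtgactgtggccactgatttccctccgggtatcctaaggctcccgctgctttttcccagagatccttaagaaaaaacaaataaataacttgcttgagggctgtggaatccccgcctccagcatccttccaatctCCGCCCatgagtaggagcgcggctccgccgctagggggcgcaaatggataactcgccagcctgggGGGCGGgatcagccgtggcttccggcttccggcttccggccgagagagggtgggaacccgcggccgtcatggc
Clca2: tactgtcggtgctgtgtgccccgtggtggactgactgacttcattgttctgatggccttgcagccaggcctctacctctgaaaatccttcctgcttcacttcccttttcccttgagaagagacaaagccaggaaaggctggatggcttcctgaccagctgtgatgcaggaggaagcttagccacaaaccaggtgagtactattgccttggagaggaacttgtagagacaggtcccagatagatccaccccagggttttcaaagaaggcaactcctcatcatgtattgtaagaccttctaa
The 2410004B18Rik sequence is chr3:145937764-145938063 on the plus strand and the Clca2 sequence chr3:145099057-145099356 on the minus strand. The Mcoln3 promoter held 1 GC box and 12 CG dinucleotides, the 2410004B18Rik promoter 2 and 19, and the Clca2 promoter 0 and 2. A GC box on either strand was present in 35.7% of 32851 promoters of the RefSeq table, whose median was 7 CG dinucleotides. It was present in 64.3% of 56 promoters of the 37 tested members that could be matched, with a median of 24.5 CG dinucleotides. Tested members passed a filter on expression level, and the 32851 promoters did not, so these shares come from unlike sets. Whether they differ by position was not tested. A match says only that these letters are present in the window.

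Of the 95 members, 48 averaged 1 FPKM or more across the 10 libraries and were tested, 27 before Bcl10 and 21 after it. A further 30 were above 0 in at least one library but below this filter, and 17 were listed at 0 in every library. The tested share was 50.5% of members, close to 54.0% of 854 protein-coding genes elsewhere on chromosome 3 and 50.1% of 19264 on other chromosomes. The median level of the tested members was 10.1 FPKM, against 10.4 FPKM for tested genes on the rest of chromosome 3 and 9.26 FPKM on other chromosomes. Only Selenof, Ccn1 and H2afz averaged 100 FPKM or more. Selenof encodes a selenoprotein of the endoplasmic reticulum, Ccn1 a secreted matricellular protein and H2afz the histone variant H2A.Z.

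Within 1 Mb of Bcl10 there were 25 members, and 13 of them were tested. Mcoln3 encodes TRPML3, a cation channel of endosomes and lysosomes whose mutations in varitint-waddler mice affect pigmentation and hearing. It lies at 146117450-146141806 on the plus strand, 183.1 kb beyond the end of Bcl10. In knockout culture 1 it was at 1.25 FPKM with IL-17A and 1.35 FPKM without it, and in knockout culture 2 at 1.45 and 1.30 FPKM. Heterozygous culture 1, whose Bcl10 level goes against its label, had 1.48 and 1.45 FPKM. Values of 6.64 and 5.34 FPKM were found in heterozygous culture 2, and of 4.02 and 4.27 FPKM in culture 3. All 4 knockout libraries thus lay below all 6 heterozygous ones, but heterozygous culture 1 was above the highest of them by a small margin only, while cultures 2 and 3 stood well above both.

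2410004B18Rik, a gene with no symbol that names a function, is the nearest member and starts 15.2 kb from the start of Bcl10 (145938014-145944829, plus strand, 3.66 kb beyond the end of Bcl10). Its levels were 4.72 and 4.43 FPKM with and without IL-17A in knockout culture 1, and 4.32 and 4.84 FPKM in knockout culture 2. They were 5.97 and 5.29 FPKM in heterozygous culture 1, 9.20 and 8.19 FPKM in culture 2, and 6.23 and 6.50 FPKM in culture 3. The knockout libraries again lay below all heterozygous libraries, here with heterozygous culture 1 between the knockout cultures and heterozygous cultures 2 and 3.

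Clca2 encodes a member of the calcium-activated chloride channel regulator family and lies on the other side of Bcl10 (145070263-145099443, minus strand, start 0.85 Mb before that of Bcl10). It was at 5.58 and 5.93 FPKM with and without IL-17A in knockout culture 1 and at 6.55 and 6.60 FPKM in knockout culture 2. Heterozygous culture 1 had 5.74 and 6.10 FPKM, culture 2 had 2.87 and 2.44 FPKM and culture 3 had 4.45 and 3.93 FPKM. Knockout and heterozygous culture 1 overlapped, and both were above heterozygous cultures 2 and 3.

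Rpf1, whose product acts in the assembly of the large ribosomal subunit, starts 0.58 Mb beyond Bcl10 (146505956-146521429, minus strand). Its levels were 42.7 and 41.1 FPKM in knockout culture 1, 49.2 and 44.7 FPKM in knockout culture 2, 50.7 and 45.7 FPKM in heterozygous culture 1, 78.2 and 68.9 FPKM in culture 2 and 59.7 and 56.5 FPKM in culture 3, with IL-17A first in each pair. Heterozygous culture 1 overlapped the knockout libraries, and cultures 2 and 3 lay above them.

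**Figure D1:**
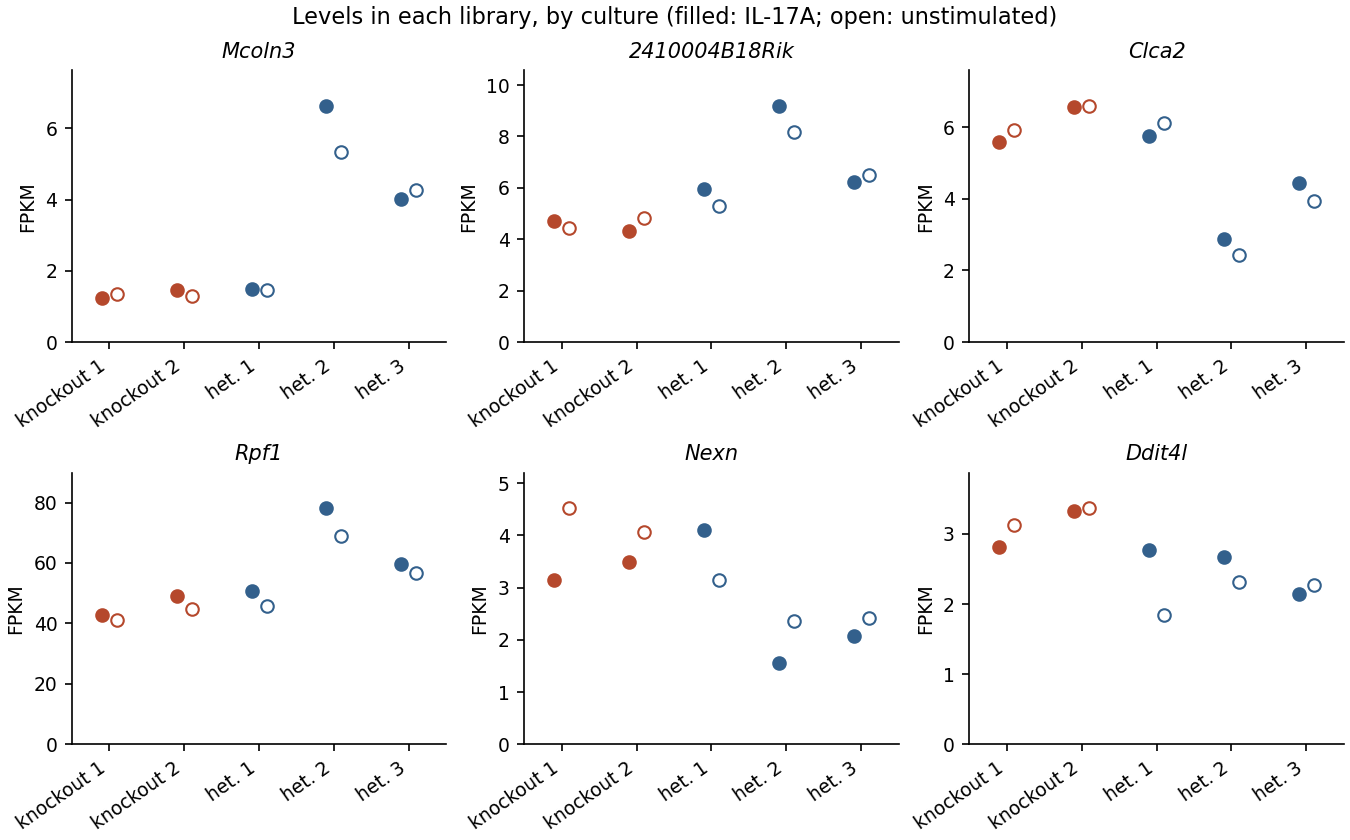
Levels of 6 members in FPKM (vertical axis from 0, a separate scale in each panel) in every library, by culture; filled points are IL-17A libraries, open points unstimulated libraries, red knockout and blue heterozygous. For Mcoln3 the knockout libraries and heterozygous culture 1 sit between 1.25 and 1.48 FPKM and heterozygous cultures 2 and 3 between 4.02 and 6.64 FPKM.

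The other 9 tested neighbours showed overlapping levels of the 4 knockout and 6 heterozygous libraries. Ddah1, which encodes a hydrolase of methylated arginines and ends before Bcl10 begins, was at 15.8 to 20.4 FPKM in knockout and 12.3 to 18.8 FPKM in heterozygous libraries. Syde2, which starts 65.1 kb beyond the start of Bcl10, was at 2.58 to 2.88 FPKM in knockout and 2.03 to 2.68 FPKM in heterozygous libraries. It is one of the nearest members and, like Clca2, had its lowest values in heterozygous cultures 2 and 3 (2.03 to 2.22 FPKM). Ccn1 spanned 150.1 to 197.1 FPKM in knockout and 137.4 to 214.5 FPKM in heterozygous libraries.

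The remaining neighbours overlapped between the genotypes as well. Znhit6, an assembly factor of small nucleolar ribonucleoproteins, had 13.2 to 15.8 FPKM in knockout and 13.0 to 16.0 FPKM in heterozygous libraries. Prkacb, a catalytic subunit of protein kinase A, had 9.35 to 10.8 and 8.90 to 10.5 FPKM in the same order. Gng5, a G-protein gamma subunit, had 23.5 to 28.8 FPKM in knockout and 24.7 to 30.4 FPKM in heterozygous libraries. For these 3 genes the ranges of both genotypes nearly coincided. Ssx2ip, which encodes a centrosome and cell junction protein, spanned 5.50 to 7.26 FPKM in knockout and 5.05 to 7.46 FPKM in heterozygous libraries. Odf2l spanned 4.78 to 6.55 FPKM in knockout and 5.40 to 8.07 FPKM in heterozygous libraries. Ctbs, the gene of a lysosomal chitobiase, spanned 1.99 to 3.04 and 2.31 to 3.34 FPKM in that order, with heterozygous cultures 2 and 3 above all knockout libraries. Ctbs shares its locus with Spata1 on the opposite strand (0.0691 to 0.547 FPKM), and since the strand setting is not given, their reads cannot be told apart.

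The other 12 neighbours under 1 Mb were not tested. Clca1, Clca4a, Mcoln2 and Dnase2b were listed at 0 in every library. Ttll7 was the highest of the rest at 0.670 to 1.23 FPKM, and Spata1, Lpar3, 4930503B20Rik, Wdr63, Uox, Samd13 and Col24a1 stayed at or below 0.547 FPKM.

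Mcoln3 was read beside pigment cell genes, because heterozygous cultures 2 and 3 also held more melanocyte marker RNA. All 5 melanocyte markers had a mean of at least 1 FPKM. Their summed level was 168 to 180 FPKM in the knockout libraries, 188 and 196 FPKM in heterozygous culture 1, and 315 to 406 FPKM in heterozygous cultures 2 and 3. The knockout mean over the mean of heterozygous cultures 2 and 3 was 0.488 for this sum and 0.264 for Mcoln3. For the single markers the same ratio was 0.346 for Mlana, which encodes a melanosome protein, 0.465 for Tyr (tyrosinase), 0.480 for Dct, 0.543 for the melanosome scaffold gene Pmel and 0.560 for Tyrp1. Mcoln3 therefore had the lowest ratio of the 6 genes, and heterozygous culture 2, heterozygous culture 3, heterozygous culture 1 and knockout fell in the same order for Mcoln3 and for the summed markers. Of the single markers, Tyrp1 did not keep this order. It was at 66.3 and 67.8 FPKM in heterozygous culture 2 and at 84.8 and 85.9 FPKM in culture 3. Its mean was 35.5 FPKM in heterozygous culture 1 and 42.7 FPKM in knockout. The part of melanocyte RNA in the Mcoln3 difference was not tested, and in bulk RNA fewer cells of a type and less RNA per cell cannot be told apart.

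**Figure D2:**
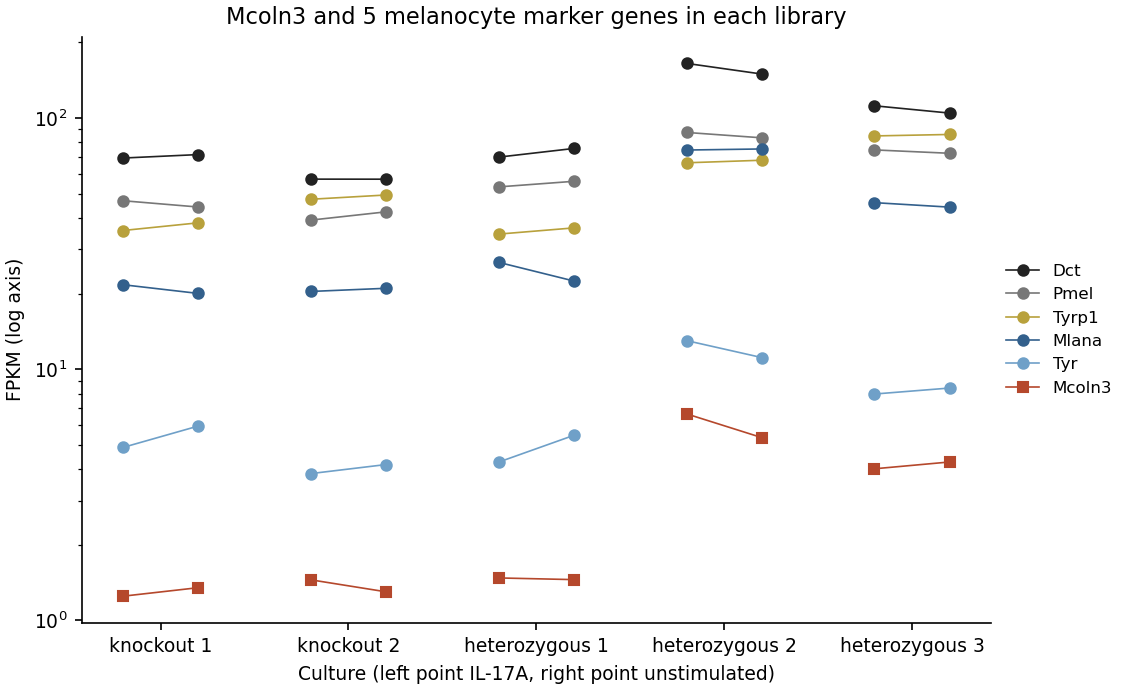
Mcoln3 (squares) and 5 melanocyte markers (circles) in FPKM on a log axis, by culture; in each culture the left point is the IL-17A library and the right point the unstimulated library. All 6 genes are higher in heterozygous cultures 2 and 3 than in the knockout libraries and heterozygous culture 1.

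Knockout was compared with heterozygous on log2(FPKM + 1) with limma, first on the mean of both libraries of each culture, so that every culture counted once (2 against 3 cultures). On this scale 0 of 48 members passed an adjusted p of 0.05, and over all 12054 rows tested 0% passed. At an unadjusted p under 0.05 there were 2 members, 4.17% of 48, against 4.82% of all rows. They were 2410004B18Rik, 0.48 lower on the log2 scale in knockout (SE 0.17, limma adjusted p = 0.606), and Ddit4l, 0.32 higher (SE 0.11, limma adjusted p = 0.606). Mcoln3 had the largest difference among the members, -0.93 (SE 0.41, limma adjusted p = 0.606), rank 117 of 12054 by size. Its means of log2(FPKM + 1) were 1.20 and 1.25 in the knockout cultures and spread from 1.30 to 2.80 over the heterozygous cultures. Clca2 had 0.49 (SE 0.26) and Rpf1 -0.41 (SE 0.19), each again at adjusted p = 0.606 by limma.

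The fit of all 10 libraries compared the genotypes within each treatment. Among IL-17A libraries 0 of 48 members passed by limma, against 0.0249% of all rows, and 2 members, 2410004B18Rik and Trmt10a, had an unadjusted p under 0.05, against 8.14% of rows. Among unstimulated libraries 0 members passed, against 0% of all rows, and 4 members, Ddit4l, Lmo4, Adgrl2 and Bmpr1b, had an unadjusted p under 0.05, against 4.66% of rows. Mcoln3 was at -0.96 with IL-17A and -0.90 without it, and 2410004B18Rik at -0.54 and -0.43 (4 knockout and 6 heterozygous libraries in all). Both conditions come from the same cultures, so they are not independent repeats.

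By ranges alone, 4 of 48 members (8.33%) had no overlap between the 4 knockout and 6 heterozygous libraries, against 5.29% of all tested rows. Mcoln3 and 2410004B18Rik were lower in knockout (4.17%, against 2.21% of rows). Ddit4l and Pigk, the gene of the GPI transamidase catalytic subunit, were higher in knockout (4.17%, against 3.09% of rows), Pigk at 4.11 to 4.54 FPKM in knockout against 2.60 to 4.06 FPKM in heterozygous libraries.

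Without both libraries of heterozygous culture 1, Mcoln3 passed the test. Its log2 difference of culture means was then -1.36 (SE 0.16, 2.56-fold lower in knockout on this scale, limma adjusted p = 0.0345), rank 80 of 12054 by size. It was the only one of the 48 members to pass, 2.08%, against 1.73% of all rows (209 genes). At an unadjusted p under 0.05 there were 14 members, 29.2%, against 34% of all rows. In unstimulated libraries Mcoln3 was again the only member called (-1.31, limma adjusted p = 0.0432), against 1.05% of all rows. Among the IL-17A libraries Mcoln3 was lower in knockout than in heterozygous cultures 2 and 3 (-1.40, limma adjusted p = 0.0259), and Nexn (0.62, limma adjusted p = 0.0408) and Dnajb4 (0.51, limma adjusted p = 0.0343) were higher in knockout. These 3 of 48 members are 6.25%, against 6.7% of all rows, and 15 members against 36% of rows had an unadjusted p under 0.05.

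The difference rested on heterozygous cultures 2 and 3. With the library-number set as a term, which leaves the comparison of knockout with heterozygous culture 1, Mcoln3 was at -0.08 (SE 0.20), 2410004B18Rik at -0.25 (SE 0.18), Clca2 at 0.05, Rpf1 at -0.12 and Nexn at 0.05, each at a limma adjusted p of 1. No member passed in any condition by limma. An unadjusted p under 0.05 was reached by 0 members for culture means (2.34% of all rows), 2 members without stimulation, Lmo4 and Ddit4l (3.94% of all rows), and 0 with IL-17A (3.68% of all rows). Among the 10 members with the smallest p in the culture means, only Ddit4l had a difference at least as large as with all cultures, 0.34 (SE 0.14, limma adjusted p = 1). Between knockout and heterozygous cultures 2 and 3, 19 of 48 members (39.6%) had libraries that did not overlap, 10 lower (21.4% of rows) and 9 higher (20.4% of rows) in knockout, against 41.8% of all tested rows. In 16 of these 19 members (84.2%) heterozygous culture 1 lay nearer to knockout, as it did in 91.1% of all such rows. Between knockout and heterozygous culture 1, 9 members (18.8%) had no overlap, against 15.9% of all rows, with 5 lower (7.65% of rows) and 4 higher (8.29% of rows) in knockout.

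Ordered by distance, the members nearest Bcl10 differed about as much as genes elsewhere. The median absolute log2 difference of culture means was 0.15 for the 13 members under 1 Mb, 0.13 for 4 members at 1 to 2 Mb, 0.13 for 6 members at 2 to 5 Mb and 0.11 for 25 members at 5 to 10 Mb. It was 0.13 over all 48 members, 0.17 over 461 genes on the rest of chromosome 3 and 0.15 over 9650 genes on other chromosomes. The median of each of the other 19 chromosomes lay between 0.141 and 0.177. All 48 members together thus had a median below that of every other chromosome, and the members under 1 Mb had one inside their range.

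The medians without heterozygous culture 1 were 0.25 under 1 Mb, 0.13 at 1 to 2 Mb, 0.18 at 2 to 5 Mb and 0.17 at 5 to 10 Mb, against 0.24 on the rest of chromosome 3 and 0.22 on other chromosomes. Between knockout and heterozygous culture 1 alone they were 0.06, 0.09, 0.03 and 0.06 in order of distance, against 0.08 and 0.07. Spearman's rank correlation between distance and the absolute difference was -0.20 with all 5 cultures, -0.20 without heterozygous culture 1 and 0.06 against heterozygous culture 1 alone (48 genes that share the same libraries and are not independent replicates).

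**Figure D3:**
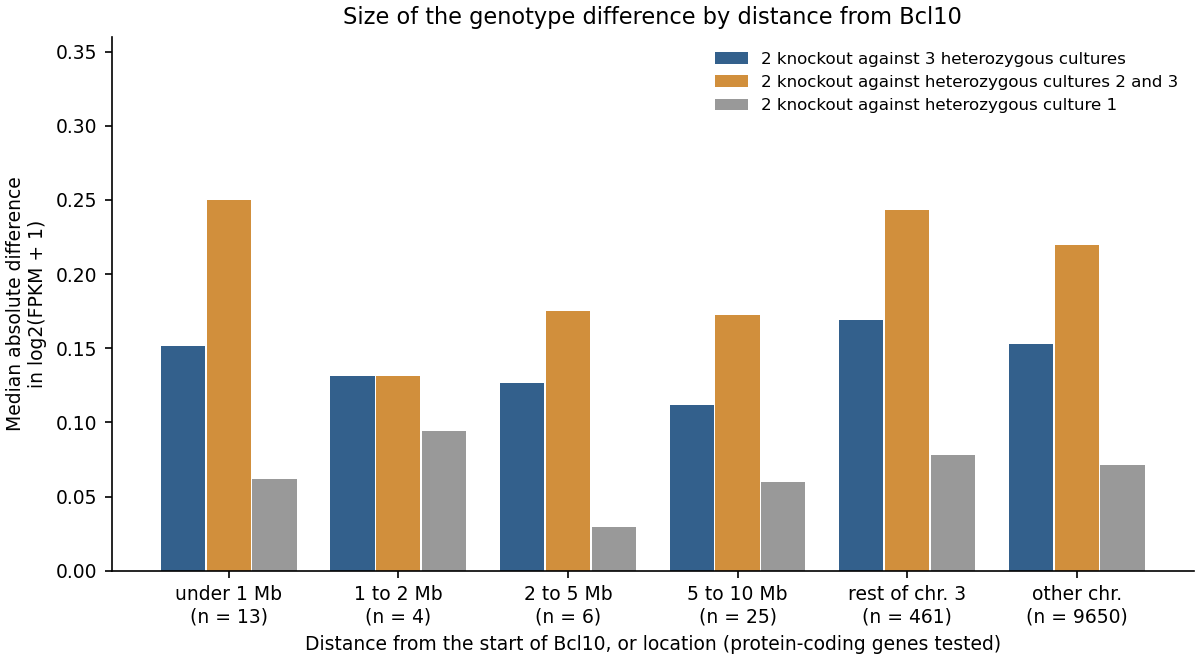
Median absolute difference in log2(FPKM + 1) between knockout and heterozygous culture means (vertical axis from 0), by distance from the start of Bcl10 and for protein-coding genes elsewhere; n is the number of genes tested, and no error is drawn because a bar is a median over genes. Bars under 1 Mb stand at 0.15, 0.25 and 0.06, beside 0.15, 0.22 and 0.07 on other chromosomes.

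The share of members with a larger difference was also counted, without a test. An absolute log2 difference over 0.3 was found in 4 of 13 members under 1 Mb (30.8%: Mcoln3, 2410004B18Rik, Clca2 and Rpf1), in 8 of all 48 members (16.7%), in 20.8% of genes on the rest of chromosome 3 and in 16.9% on other chromosomes. On the other chromosomes taken singly this share was 13% to 20.2%. Without heterozygous culture 1 it was 38.5% under 1 Mb (5 of 13), 29.2% over all members, 40.6% on the rest of chromosome 3 and 35.4% on other chromosomes. Against heterozygous culture 1 alone it was 0% under 1 Mb (0 of 13), 4.17% over all members, 9.54% on the rest of chromosome 3 and 4.84% on other chromosomes. The middle 90% of genes on other chromosomes, from the 5th to the 95th percentile, had differences between -0.35 and 0.39. Outside it lay 5 of 48 members, with Mcoln3, 2410004B18Rik and Rpf1 below and Clca2 and Nexn above. Without heterozygous culture 1 the band was -0.50 to 0.55, and the same 5 members and Lamtor3 lay outside it. Against heterozygous culture 1 alone it was narrower, -0.21 to 0.22. Ccn1, 2410004B18Rik and Zzz3 lay below that band and Ddit4l above it. 2410004B18Rik was thus outside the band in each comparison. Both directions occurred among the near genes, and over the whole window 26 of 48 members were lower in knockout.

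**Figure D4:**
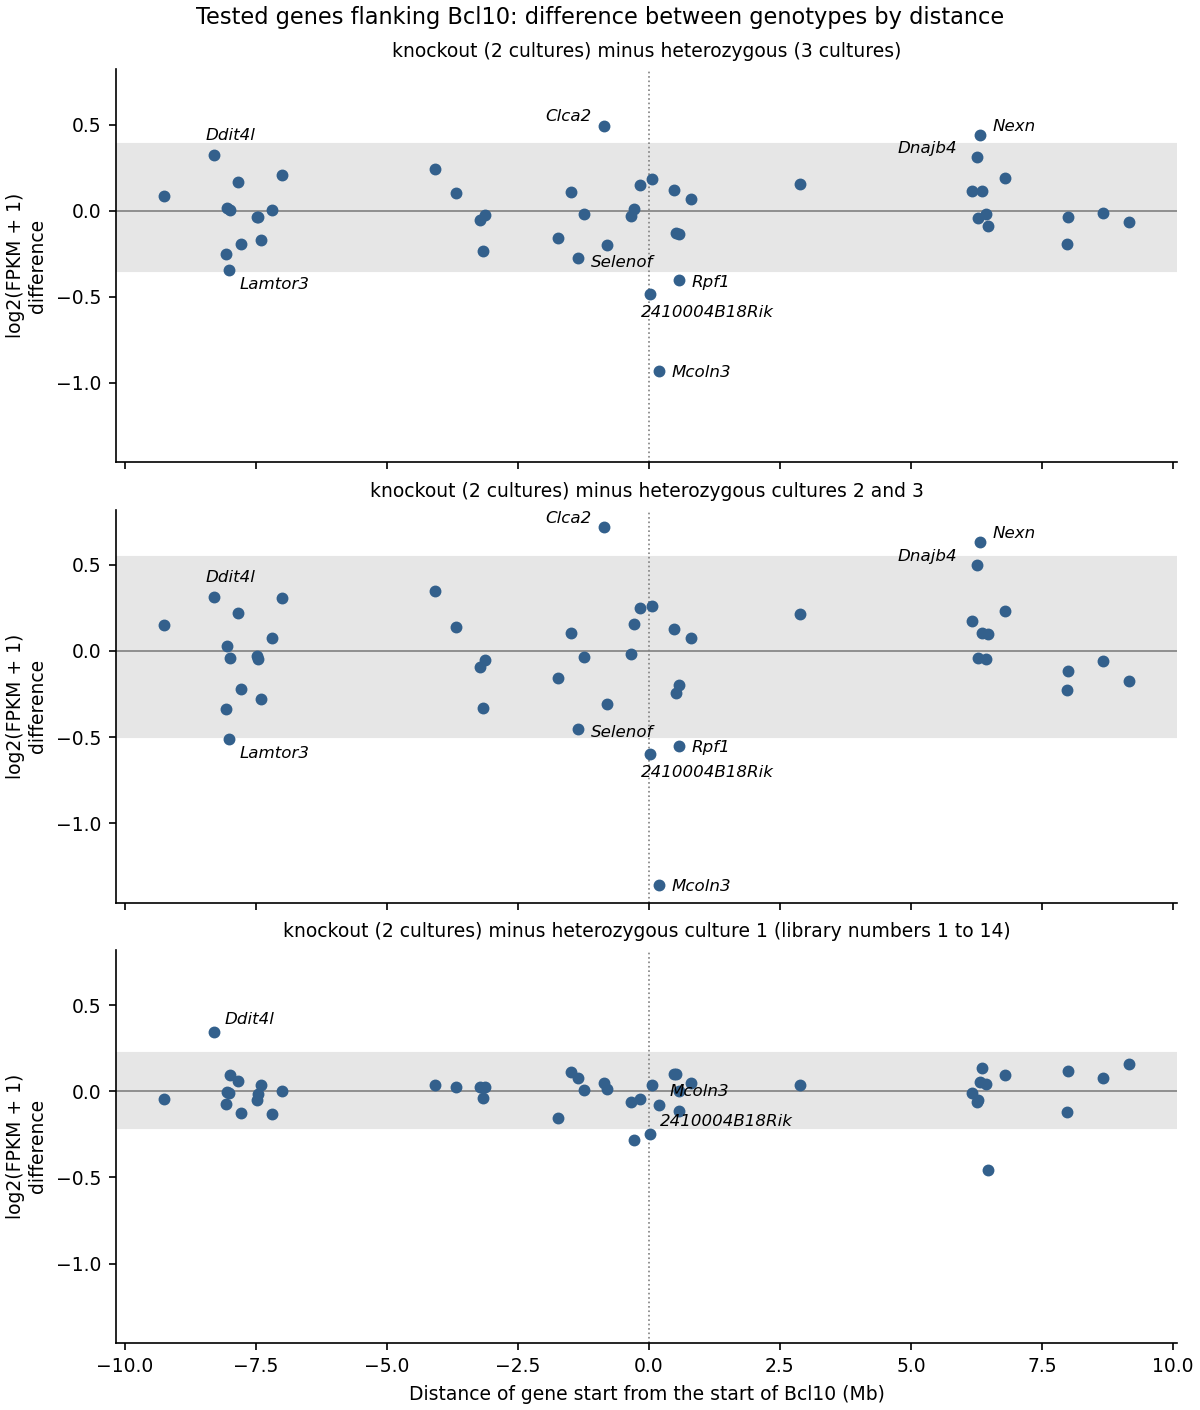
Difference in log2(FPKM + 1) of culture means, knockout minus heterozygous, for the 48 tested members by distance of their start from that of Bcl10 (Mb); the panels use all 5 cultures, heterozygous cultures 2 and 3 only, and heterozygous culture 1 only, and the grey band runs from the 5th to the 95th percentile of genes on other chromosomes. Mcoln3 lies farthest from 0 in the upper and middle panels, at -0.93 and -1.36, and within the band at -0.08 in the lower panel.

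Farther out, members with differences of similar size lay at both ends of the window. Nexn encodes the actin-binding protein nexilin and starts 6.31 Mb beyond Bcl10 (152236982-152266350, minus strand). It was at 3.15 and 4.53 FPKM with and without IL-17A in knockout culture 1, at 3.50 and 4.06 FPKM in knockout culture 2, and at 4.11 and 3.15 FPKM in heterozygous culture 1. Heterozygous cultures 2 and 3 were lower, at 1.56 and 2.36 FPKM and at 2.07 and 2.42 FPKM. Its difference of culture means was 0.44 (SE 0.20). Dnajb4, a co-chaperone of the HSP40 family 6.26 Mb from Bcl10, had 9.11 to 11.3 FPKM in knockout, 9.53 and 11.4 FPKM in heterozygous culture 1 and 6.14 to 7.52 FPKM in heterozygous cultures 2 and 3. Both genes had heterozygous culture 1 at the knockout level.

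Ddit4l, which encodes REDD2, an inhibitor of mTORC1 signalling, starts 8.30 Mb before Bcl10 (137621612-137628333, plus strand). It was at 2.82 and 3.13 FPKM in knockout culture 1 and 3.33 and 3.37 FPKM in knockout culture 2, with IL-17A first. Heterozygous culture 1 had 2.77 and 1.84 FPKM, culture 2 had 2.67 and 2.31 FPKM, and culture 3 had 2.15 and 2.27 FPKM. Every knockout library was above every heterozygous one, and heterozygous culture 1 lay on the heterozygous side. The lowest knockout and highest heterozygous values were close, 2.82 and 2.77 FPKM.

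Lamtor3, a subunit of the Ragulator complex that anchors mTORC1 to lysosomes, starts 8.0 Mb before Bcl10. It had 23.9 to 25.4 FPKM in knockout, 24.3 and 25.9 FPKM in heterozygous culture 1 and 31.2 to 42.1 FPKM in heterozygous cultures 2 and 3, with a difference of -0.35 (SE 0.20). H2afz had 81.7 to 120.9 FPKM in knockout and 101.1 to 140.8 FPKM in heterozygous libraries (-0.25, SE 0.14), and since reads shared with the close paralogue H2afv may be split, its level is uncertain. Trmt10a, a tRNA methyltransferase gene, had 1.96 to 2.48 and 2.47 to 3.10 FPKM in that order (-0.19, SE 0.11) and overlaps Mttp on the opposite strand (1.42 to 2.26 FPKM). Eif4e, the cap-binding translation factor, and Ppp3ca, the calcineurin catalytic subunit, were among the highest members before Bcl10. Eif4e had 57.0 to 65.4 FPKM in knockout and 55.6 to 84.1 FPKM in heterozygous libraries, and Ppp3ca 43.3 to 52.9 and 36.5 to 50.9 FPKM in that order.

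Within 5 Mb before Bcl10, Selenof was at 149 and 167 FPKM with and without IL-17A in knockout culture 1, 164 and 160 FPKM in knockout culture 2, 155 and 148 FPKM in heterozygous culture 1, 249.6 and 232 FPKM in culture 2 and 203 and 198 FPKM in culture 3. Heterozygous culture 1 overlapped the knockout libraries, and the difference of culture means was -0.28 (SE 0.20). Bmpr1b, a receptor for bone morphogenetic proteins, had 3.11 to 4.65 FPKM in knockout and 2.45 to 3.75 FPKM in heterozygous libraries (0.24, SE 0.14). Pdlim5, which encodes a PDZ and LIM domain protein of the actin cytoskeleton, had 66.2 to 78.4 and 64.0 to 75.6 FPKM in that order. Beyond Bcl10, Rabggtb, the beta subunit of Rab geranylgeranyl transferase, had 33.7 to 39.9 FPKM in knockout and 39.4 to 49.4 FPKM in heterozygous libraries (-0.19, SE 0.11), with 3 small RNA genes inside its model.

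Adgrl2, an adhesion receptor of the latrophilin family 2.89 Mb beyond Bcl10, had 12.7 and 13.8 FPKM in unstimulated knockout libraries against 9.53, 10.5 and 8.70 FPKM in unstimulated heterozygous libraries. These did not overlap (log2 difference 0.44, SE 0.18, limma adjusted p = 0.728). With IL-17A it had 9.46 and 14.1 FPKM in knockout against 15.3, 10.8 and 12.6 FPKM in heterozygous libraries, which overlapped. Lmo4, which encodes a LIM-only transcriptional cofactor and starts 1.73 Mb before Bcl10, had 11.2 and 12.6 FPKM in unstimulated knockout libraries against 15.3, 14.9 and 16.1 FPKM in unstimulated heterozygous libraries. These did not overlap either (-0.35, SE 0.11, limma adjusted p = 0.728), while with IL-17A the 13.0 and 13.5 FPKM in knockout lay within the 12.9, 11.6 and 14.2 FPKM of the heterozygous libraries. Both genes thus differed by range between the genotypes without stimulation and overlapped with it. Such separation of a few libraries was not particular to them. Ddit4l, Bmpr1b, Pdlim5 and Hs2st1, among other members, were also separated by range without stimulation. The share of all rows with this separation is not given here.

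The other highly expressed members after Bcl10 had overlapping ranges. Fubp1, which encodes a single-stranded DNA-binding protein, had 29.6 to 33.9 and 31.6 to 33.9 FPKM in that order. Fpgt, a fucose metabolism gene, had 9.67 to 11.8 FPKM in knockout and 8.55 to 13.0 FPKM in heterozygous libraries.

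No member passed the threshold for IL-17A. With both genotypes averaged, 0 of 48 members passed by limma, against 0.0498% of all rows, and 0 had an unadjusted p under 0.05, against 1.45% of rows. The median absolute log2 difference of IL-17A against unstimulated libraries was 0.043 over the tested members and 0.0472 over all rows, and the largest was 0.21 among members and 3.74 among all rows. That largest value belonged to Dnajb4, which was lower with IL-17A in 5 of 5 cultures (-0.21). With culture as a block 0 members passed as well, and 3 had an unadjusted p under 0.05. They were Dnajb4 (-0.21, SE 0.05, limma adjusted p = 0.476), Bmpr1b (-0.21, adjusted p = 0.721, lower in 5 of 5 cultures) and Rpf1 (0.12, adjusted p = 0.772, higher in 5 of 5 cultures). H2afz and Dnajb14 were lower in 5 of 5 cultures too, in some by very little. The smallest changes were -0.0019 for H2afz in knockout culture 2 and -0.0066 for Dnajb14 in heterozygous culture 1. The shares of all rows with such a p or such signs are not given here. For the difference in response between genotypes 0 members passed by limma, against 0% of all rows, and 1 member against 1.19% of rows had an unadjusted p under 0.05. This was Lmo4, with a difference in response of 0.39 (SE 0.15, limma adjusted p = 1). With culture as a block 0 members passed for the difference in response and 2 had an unadjusted p under 0.05. These were Lmo4 (0.39) and Adgrl2 (-0.56), each at a limma adjusted p of 0.779, again without the share of all rows.

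Most genes of 4 families in the window were below the filter of 1 FPKM. Of 7 Clca genes, regulators of calcium-activated chloride channels, only Clca2 was tested. Clca1, Clca4a and Clca4b were listed at 0, and the highest of the others was Clca3a2 at up to 0.595 FPKM. Of 6 alcohol dehydrogenase genes only Adh5, the class III enzyme that also acts on formaldehyde adducts, was tested, at 37.7 to 38.4 FPKM in knockout and 36.2 to 40.6 FPKM in heterozygous libraries. Adh4 and Adh6a were listed at 0, and Adh7 reached 0.497 FPKM. None of the 4 guanylate-binding protein genes, interferon-induced GTPases of cell-autonomous defence, was tested. Gbp2 (0.144 to 0.654 FPKM) and Gbp7 (0.126 to 0.572 FPKM) had values above 0 in every library, and Gbp2b was listed at 0. Members of the Clca, Adh and Gbp families resemble each other in sequence, so low values may be shared between copies. Of the 2 mucolipins, Mcoln3 was tested and its neighbour Mcoln2 was listed at 0.

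Of the 30 members below the filter, 20 stayed under 0.19 FPKM in every library, about the floor of the shallowest library. At the edges of the window, Bank1 was the first gene inside (9.87 Mb before Bcl10, 0 to 0.0315 FPKM) and Slc39a8 the nearest outside it (10.1 Mb before, 1.16 to 1.69 FPKM). At the other end Lrriq3 was inside (9.17 Mb beyond, 0.0082 to 0.215 FPKM) and Negr1 outside (10.6 Mb beyond, 0 to 0.0604 FPKM). The edges thus divided off genes at low levels on both sides.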

How the data were processed

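An FPKM table covering 10 libraries was deposited by the authors, with HISAT2, SAMtools, StringTie and DESeq2 as tools and mm10 as genome build, per the submitters' processing notes. Not given in the sources used here are tool versions, what each tool did, whether counting used strand, and the annotation. Since FPKM are not counts, count models were not applied.

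Identifiers were matched to GENCODE M21 (GRCm38; 32919 of 37991 rows), and distances run between gene starts. Of 98 annotated protein-coding genes in the window 3 had no matching row and were not analysed here. Rows with a mean of at least 1 FPKM (12054) were tested on log2(FPKM + 1) with limma 3.58.1 in R 4.3.3 and its mean-variance trend, two-sided, with Benjamini-Hochberg adjustment over all 12054 rows and a threshold of 0.05. Genotypes were compared on culture means and within each condition, and IL-17A over 4 group means. Fold changes on this scale understate those of genes near 1 FPKM.

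Depth was estimated in single-exon genes of 300 to 3000 bp, where 48.5% to 54.5% of low values fell within 0.05 of whole fragments. Same-numbered libraries of one genotype were taken as a pair, because the labels give them one genotype and number and their deviations from the group means correlated across genes at 0.227 for both knockout cultures (deviations of 2 cultures mirror, which leaves 1 value) and, for heterozygous cultures 1 to 3 in turn, at 0.607, 0.488 and 0.137. Across genotypes the correlations were -0.155 to 0.0476, and those numbers were not taken as pairs. The libraries paired as knockout culture 1 differed in Bcl10, at 16.4 FPKM with IL-17A and 0.969 FPKM without it. Its culture mean averages both.

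The members and lists were chosen with earlier results of these data known. Named genes were all members under 1 Mb from Bcl10, any member past the threshold, the 10 with the smallest p in the culture means, the 3 highest and 3 most different in each 5 Mb flank, and 4 gene families. Pigk and Lmo4 were added after their values were seen. The fits were tested on simulated data. Alternatives were another pseudocount (0.1), no filter or a mean of at least 5 FPKM, other scalings, no trend, culture as a block, the library-number set as a term and each library left out.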

Additional observations from a re-analysis of the deposited data

Results flagged for a closer look

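The change with IL-17A had opposite signs between the genotypes for Lmo4. It was 0.20 and 0.09 on the log2(FPKM + 1) scale in knockout cultures 1 and 2, and -0.23, -0.33 and -0.16 in heterozygous cultures 1, 2 and 3. The difference between these changes was 0.39, which did not pass by limma with all genes adjusted (adjusted p = 1 without and 0.779 with culture as a block). Such a pattern of opposite signs was found in 3 of the 48 tested members (6.25%) and in 7.32% of all tested rows.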

How the results depend on the processing

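The count of members past the threshold was 0 in all comparisons and moved only without both libraries of heterozygous culture 1, to 1 (unstimulated), 3 (IL-17A) and 1 (culture means), which leaves 2 heterozygous cultures. Leaving out each culture in turn gave 0 to 1 called members for culture means, and leaving out each single library gave 0 in the other comparisons. The median absolute difference of members was 0.10 to 0.19 when each culture was left out, 0.16 with a pseudocount of 0.1, 0.08 without a filter (78 members), 0.13 at a mean of at least 5 FPKM and 0.06 with the number set as a term.

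With the number set as a term these members changed sign: H2afz 0.0049, Selenof 0.15 and Dnajb4 -0.0751 (unstimulated), Nexn -0.051, Clca2 -0.0122, Bmpr1b -0.0807, Selenof 0.0126 and Dnajb4 -0.0452 (IL-17A), and Selenof 0.079 and Dnajb4 -0.0601 (culture means). With single libraries left out, unstimulated H2afz ranged from -0.3533 to 0.0082, its sign turning without unstimulated knockout library 2. The causes were not tested. Of 713 values of 13 single members under these alternatives, 696 kept their direction and their side of the threshold, 11 reversed and 6 passed it.

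For IL-17A and the difference in response, the replicate block was the culture, a pairing within a genotype. Between genotypes it was the shared number, which was not taken to pair samples. With either block 0 members were called in every comparison. Over all rows the block gave 13 calls for IL-17A, against 6 without it, 16 for culture means, against 0, and 0 between genotypes with IL-17A, against 3. With 2 knockout cultures, small differences may go undetected, and depth limits genes near 1 FPKM.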

Other observations

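Many members differed more between the 2 libraries of some culture than between the genotypes. Among them were H2afz (largest gap 0.56, genotype difference -0.25) and Bmpr1b (0.46 and 0.24). Both of these gaps were in knockout culture 1, whose unstimulated library had Bcl10 at 0.969 FPKM. In every other culture the IL-17A change of both genes was smaller in size than the genotype difference. It reached -0.23 for H2afz in heterozygous culture 2 and -0.18 for Bmpr1b in knockout culture 2. The 2 members with the largest gaps are named here after their values were seen. Pkn2, which encodes a protein kinase, was at 21.6 FPKM with IL-17A and 11.6 FPKM unstimulated in heterozygous culture 3, a gap of 0.84 on the log2(FPKM + 1) scale. Zzz3, which encodes a zinc finger protein of the ATAC acetyltransferase complex, was at 11.3 FPKM with IL-17A and 6.53 FPKM unstimulated in knockout culture 2, a gap of 0.70. Among the 19 members whose knockout libraries did not overlap heterozygous cultures 2 and 3, heterozygous culture 1 lay nearer to the heterozygous side in 3: Trmt10a, Rabggtb and Ddit4l.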
